A study of Mus musculus with 18 samples.

Results

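Liver mRNA of 6 genes that handle ketone bodies and gate pyruvate oxidation was followed across the 6 groups of the series, Bdh1, Acat1, Slc16a1, Pdk1, Pdk2 and Pdk4. They were chosen by name, each has 1 row among the 19057 genes of the deposited table, and all 6 were among the 10204 genes that were tested because their RPKM averaged 1 or more across the 18 libraries. RPKM is a read number scaled by the length of the gene and by the mapped reads of the library. The question was how far each gene moved with the high-fat diet and streptozotocin (STZ), with microbiota transplanted into such mice, and with alginate oligosaccharide (AOS).

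All samples were livers of male ICR mice at 10 weeks of age, with 3 libraries per group. Con mice received a regular diet and saline. HS mice received a high-fat diet and STZ, a drug that kills pancreatic beta cells. The 2 transplanted groups were given that diet and STZ too and, in addition, microbiota from the small intestine of donors given AOS at 10 mg/kg (A10-FMT) or of control donors (Con-FMT), and the content of each donor group was pooled before transfer. The A10 group (AOS at 10 mg/kg) and the HS+A10 group (high-fat diet, STZ and AOS at 10 mg/kg) are known from their labels alone, which give no diet for A10, and no STZ group on the regular diet and no high-fat diet group without STZ is among the samples, so that diet and STZ cannot be told apart. The labels do not say that the 3 libraries of a group are 3 animals, so p-values measure only the spread between these samples, which may be technical.

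Ketone bodies are made in hepatocyte mitochondria from the acetyl-CoA of fatty acid oxidation. ACAT1 joins 2 molecules of acetyl-CoA at the first step, and BDH1 reduces acetoacetate to beta-hydroxybutyrate at the last. SLC16A1 (MCT1) is a proton-coupled carrier of lactate, pyruvate and ketone bodies in the plasma membrane. The pyruvate dehydrogenase kinases PDK1, PDK2 and PDK4 phosphorylate the pyruvate dehydrogenase complex and switch it off, which spares pyruvate, and Pdk4 is well known as a kinase whose mRNA rises in fasting.

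On GRCm38, the assembly also called mm10, Bdh1 lies on chromosome 16 at 31422280 to 31458901 on the plus strand and Acat1 on chromosome 9 at 53580522 to 53610382 on the minus strand. Slc16a1 lies on chromosome 3 at 104638668 to 104658462, plus strand. Pdk1 lies on chromosome 2 at 71873224 to 71903858 (plus), Pdk2 on chromosome 11 at 95026258 to 95041354 (minus) and Pdk4 on chromosome 6 at 5483351 to 5496309 (minus). All 6 are annotated as protein coding. RefSeq promoters of GRCm38.p6 matched 5 of the 6 genes by symbol, with 8 start sites, and Acat1 was not among them. The 250 bases before the start are printed 5′ to 3′ on the strand of the gene for Bdh1, which separated the groups with and without high-fat diet and STZ, for Slc16a1 and Pdk4, which fell in both transplanted groups, and for the Pdk2 start site that shares a motif with Slc16a1. Capitals mark the E-box letters CACGTG.
Bdh1 start site 1, chr16:31422047-31422296, plus strand: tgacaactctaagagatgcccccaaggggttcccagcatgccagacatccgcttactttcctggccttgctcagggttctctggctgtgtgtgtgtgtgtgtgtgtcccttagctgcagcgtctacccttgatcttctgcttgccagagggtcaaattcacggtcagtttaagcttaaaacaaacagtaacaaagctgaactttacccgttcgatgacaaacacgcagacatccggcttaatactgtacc
Slc16a1, chr3:104638414-104638663, plus strand: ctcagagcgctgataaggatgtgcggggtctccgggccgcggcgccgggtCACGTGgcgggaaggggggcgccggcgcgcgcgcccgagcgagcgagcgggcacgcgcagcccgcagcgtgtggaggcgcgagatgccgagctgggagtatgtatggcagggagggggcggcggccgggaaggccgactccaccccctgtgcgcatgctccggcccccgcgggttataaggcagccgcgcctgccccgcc
Pdk2 start site 2, chr11:95041372-95041621, minus strand: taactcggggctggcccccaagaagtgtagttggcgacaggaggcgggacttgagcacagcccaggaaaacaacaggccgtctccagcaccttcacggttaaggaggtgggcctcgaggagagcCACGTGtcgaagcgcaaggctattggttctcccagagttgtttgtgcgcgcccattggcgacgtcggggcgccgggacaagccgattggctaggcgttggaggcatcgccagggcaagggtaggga
Pdk4, chr6:5496279-5496528, minus strand: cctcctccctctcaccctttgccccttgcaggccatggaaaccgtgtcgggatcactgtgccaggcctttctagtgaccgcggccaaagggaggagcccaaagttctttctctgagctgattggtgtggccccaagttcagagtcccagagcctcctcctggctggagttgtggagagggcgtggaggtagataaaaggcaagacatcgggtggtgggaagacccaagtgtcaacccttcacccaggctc

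CACGTG stood 200 bases before the start of Slc16a1 and 126 bases before this start of Pdk2, and was present in 6.02% of the 32851 promoter windows of the same length. On either strand, the nuclear receptor motif AGGTCA (14.0% of windows), its direct repeat with 1 base between the copies (0.0335%) and the forkhead letters TGTTTAC (3.17%) were in none of the 8 windows of these genes. Each match of the direct repeat also holds the single motif. The Slc16a1 window was rich in G and C (76.4%), above the Bdh1 windows (49.6% and 60.8%) and the Pdk4 window (58.8%).

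Summed RPKM was 692818 to 806937 per library, and the steps between low values put relative depth between 0.951 and 1.06 of the mean, lowest in HS (0.951 to 0.968), with the number of reads unknown. Hepatocyte markers (5 of 6 in the table) summed to between 36520 and 56730 RPKM, and none of the 5 was at 0 in any library. Con-FMT replicate 3, Con replicate 3 and A10 replicate 3 stood apart. Con-FMT replicate 3 held acinar pancreas markers at a sum of 19680 RPKM, against 14.06 to 50.22 in the other 17 libraries, and with them the adipocyte marker Adipoq at 2.44 RPKM against at most 0.11. Con replicate 3 had the middle value of its group for 79% of the 1165 genes with a spread of 1.5-fold or more in Con, and for 6 of the 6 genes described here. A10 replicate 3 had it for 75.2% of 879 such genes in A10, and for 3 of the 6 genes. Without Con replicate 3 the change of each of the 6 genes moved by at most 0.0554 on the log2 scale used below, without A10 replicate 3 by at most 0.0592, and 0 of their calls changed. Leaving out a middle value moves a group mean little whatever the origin of the library, so these moves do not settle the doubt. Whether such libraries narrow the spread of their group was not tested. Without Con-FMT replicate 3 they moved by up to 0.211 (Pdk1), and 1 call changed, that of Pdk2 in A10-FMT against Con-FMT. The HS libraries are the reference in 3 comparisons and are themselves compared with Con, so these comparisons are not independent.

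Differences were tested with limma on log2(RPKM + 1), fitted over all 18 libraries, and a gene was called at a Benjamini-Hochberg adjusted p under 0.05 over the 10204 tested genes. Changes are given on this scale with their standard error (SE), and the pseudocount of 1 understates the change of low genes, in particular Pdk4. The level of all genes moved between groups: the median change was 0.141 for HS against Con, -0.16 for A10-FMT against HS and -0.116 for Con-FMT against HS, and it lay between -0.033 and 0.0658 in the other 4 comparisons of pairs of groups. Of the calls over all genes, 89.4% were higher in HS than in Con, but 45% with each library scaled to the same median. The share that was higher went from 9.03% to 55.3% for A10-FMT against HS, from 19.5% to 40.9% for Con-FMT against HS, from 35.8% to 57.6% for A10-FMT against Con-FMT, from 40.3% to 61.9% for HS+A10 against HS and from 65.1% to 51.9% for HS+A10 against A10.

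**Figure D1:**
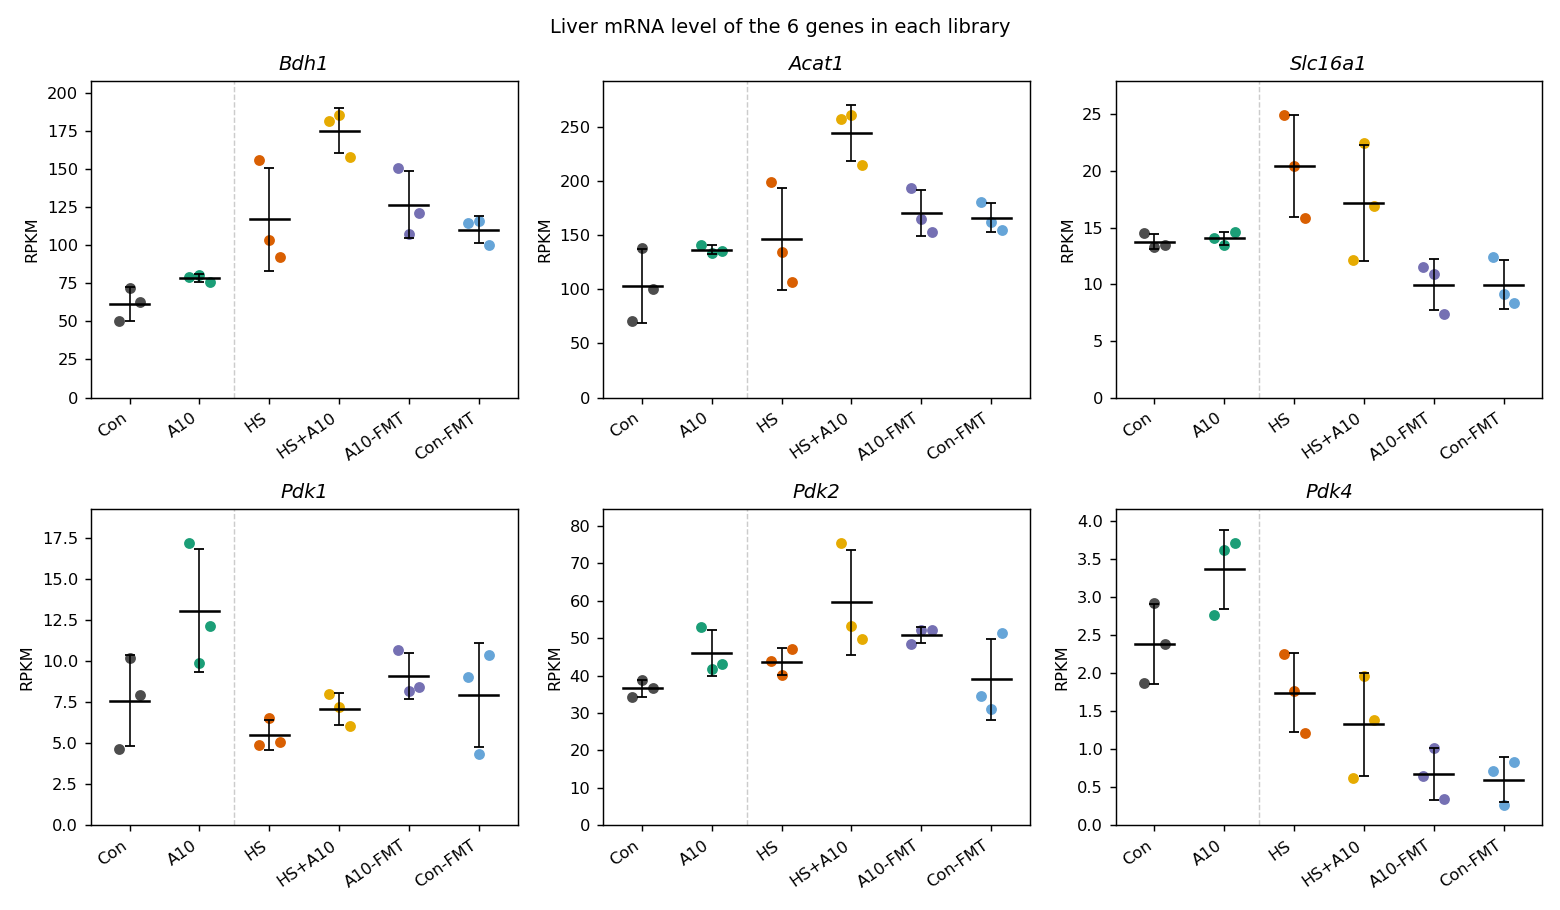
RPKM (y axis) of each of the 6 genes in the 18 libraries, by group. Points are libraries, the long bar is the mean and the error bar the SD of 3 libraries, and the dashed line parts Con and A10 from the 4 groups on the high-fat diet and STZ. All 12 Bdh1 points right of the line lie above all 6 left of it, Slc16a1 is lowest in the 2 transplanted groups, and Pdk4 runs from 3.37 RPKM in A10 to 0.60 in Con-FMT.

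Bdh1, the enzyme of the last step, was higher in every library of the 4 groups on the high-fat diet and STZ than in any of Con and A10. Its level was 49.91, 71.89 and 62.77 RPKM in Con (61.5 ± 11.0, SD, n = 3) and 78.78, 80.45 and 75.62 in A10 (78.3 ± 2.45). It was 155.46, 103.29 and 92.03 RPKM in HS (117 ± 33.8), 181.17, 185.29 and 157.92 in HS+A10 (175 ± 14.8), 114.18, 115.76 and 99.74 in Con-FMT (110 ± 8.83), and 150.58, 107.51 and 121.12 in A10-FMT (126 ± 22.0). The 12 high-fat diet and STZ libraries spanned 92.03 to 185.29 RPKM and the 6 others 49.91 to 80.45, without overlap, and Bdh1 was the only one of the 6 genes with this split. The split was looked at after the data were seen, and 1.61% of tested genes showed it in this direction. In the order of group means HS+A10 was above A10-FMT without overlap, A10-FMT, HS and Con-FMT overlapped, Con-FMT lay above A10 and A10 above Con, both without overlap. Of all tested genes, 24.8% had no overlap between A10 and Con. The share was not counted for HS+A10 and A10-FMT or for Con-FMT and A10.

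Compared with Con, Bdh1 rose in HS by 0.89 on the log2 scale (SE 0.173, adjusted p = 0.00424), or 0.75 beyond the median of all genes. It was the only one of the 6 genes called in this comparison, in which 17.7% of tested genes were called and 15.9% were called higher. The call held without Con replicate 3 (0.92, adjusted p = 0.0154) and was lost when only the 6 libraries compared were fitted (adjusted p = 0.0558). Bdh1 rose further in HS+A10 over HS, by 0.61 (SE 0.173, adjusted p = 0.0458), where 7.32% of tested genes were called and 2.95% were called higher. That call was lost without HS replicate 2, HS replicate 3 or any 1 of the HS+A10 libraries, with changes of 0.46 to 0.68 in those fits, and in total in 7 of 14 alternatives. Between HS+A10 and A10, the groups that both received AOS, Bdh1 rose by 1.15 (SE 0.173, adjusted p = 0.000439), and this was called in all 14 alternatives (adjusted p = 0.00325 without A10 replicate 3), against 20.9% of tested genes called and 13.6% called higher.

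Neither transplant moved Bdh1 past the threshold. The change was 0.13 for A10-FMT against HS (95% interval -0.23 to 0.50, adjusted p = 0.587) and -0.05 for Con-FMT against HS (-0.42 to 0.31, adjusted p = 0.846), and the latter became 0.01 without Con-FMT replicate 3. A10 against Con gave 0.36 (-0.01 to 0.73, adjusted p = 0.378) with no overlap between the libraries, which 24.8% of tested genes shared. HS replicate 1, at 155.46 RPKM, was the high HS library, and without it the change from HS to HS+A10 was 0.83.

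Acat1, which acts at the first step and also in isoleucine and ketone body breakdown, was highest in HS+A10. Its level was 70.83, 138.24 and 99.70 RPKM in Con (103 ± 33.8, SD, n = 3), 140.88, 133.50 and 135.02 in A10 (137 ± 3.90), and 198.62, 134.21 and 106.74 in HS (147 ± 47.2). It was 256.83, 260.68 and 214.15 RPKM in HS+A10 (244 ± 25.8), 180.69, 161.57 and 154.81 in Con-FMT (166 ± 13.4), and 193.50, 164.97 and 152.62 in A10-FMT (170 ± 21.0). The 3 HS+A10 libraries lay above all 15 others, and every other pair of neighbours in the order of group means overlapped. The share of tested genes with 3 HS+A10 libraries above all 15 others was not counted. For pairs of groups, in either direction, 27.4% had no overlap between HS+A10 and HS, and 43% none between HS+A10 and A10. Acat1 rose in HS+A10 over HS by 0.77 (SE 0.215, adjusted p = 0.0432) and over A10 by 0.83 (SE 0.215, adjusted p = 0.0135). The first of these calls was lost in 7 of 14 alternatives, the same fits as for Bdh1, with changes of 0.57 to 0.86 where a library was left out, and the second was kept in all 14 (adjusted p = 0.0426 without A10 replicate 3).

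For HS against Con, Acat1 gave 0.51 (95% interval 0.05 to 0.97, adjusted p = 0.106) and the libraries overlapped. The value depended on single libraries, since it passed the threshold without Con replicate 2 (0.75, adjusted p = 0.0268) or without HS replicate 3 (0.71, adjusted p = 0.0456), and was 0.51 without Con replicate 3 (adjusted p = 0.188). Against HS the change was 0.26 in A10-FMT (-0.20 to 0.71, adjusted p = 0.392) and 0.22 in Con-FMT (-0.24 to 0.68, adjusted p = 0.488), and A10 against Con gave 0.46 (adjusted p = 0.363).

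Bdh1 and Acat1 followed each other from library to library. Over the 18 libraries Pearson's r of log2(RPKM + 1) was 0.93, and 0.907 after the group means had been removed. Among the 3 genes most like Bdh1 over the 18 libraries were Cpt1a (r = 0.963), the gate of fatty acid entry into mitochondria, and Creb3l3 (0.96), a liver transcription factor of fasting. The 3 most like Acat1 were Acaa2 (0.973), which encodes a thiolase of beta-oxidation, Bbox1 (0.949), the last enzyme of carnitine synthesis, and Acadl (0.949), a long-chain acyl-CoA dehydrogenase. All these points share their libraries, depth and scaling, and the values are descriptions over 18 libraries with 3 to a group.

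**Figure D2:**
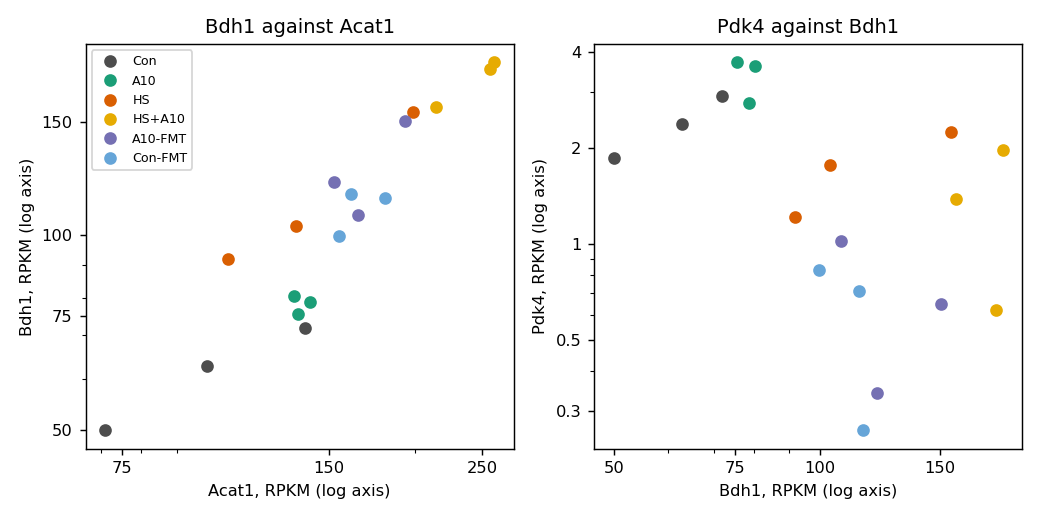
Bdh1 against Acat1 and Pdk4 against Bdh1, each axis in RPKM on a log scale, 1 point per library and 1 colour per group. Bdh1 and Acat1 run together from the Con libraries at the lower left to HS+A10 at the upper right, while Pdk4 against Bdh1 shows no such line (r = -0.493 over the 18 libraries and 0.261 within groups).

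Aacs, whose enzyme turns acetoacetate toward lipid synthesis in the cytosol, was at 20.71, 49.06 and 36.25 RPKM in Con and 1.38, 15.06 and 14.20 in HS. HS lay below Con, most of all in HS replicate 1, and Aacs was called lower (-2.04, adjusted p = 0.0162). The change was -1.14 without HS replicate 1 (adjusted p = 0.0143), and the call was lost without Con replicate 2 (adjusted p = 0.0509) or Con replicate 3 (0.052). Bdh2, which encodes a cytosolic enzyme of the same name, gave -0.18 in this comparison (adjusted p = 0.667). Oxct1, which breaks ketone bodies down outside the liver, was not tested and lay between 0.41 and 1.02 RPKM in all libraries.

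The 14 genes listed for fasting-type fatty acid oxidation, 13 of them tested, included Cpt1a and Creb3l3. In HS against Con 11 of 13 rose and 0 fell (median 0.719 against 0.141 over all genes), among them Cpt1a (1.15, adjusted p = 0.00127), and 7 of 13 without Con replicate 3. In HS+A10 against HS 6 rose and 0 fell (0.532 against -0.0329). In HS+A10 against A10 10 rose and 0 fell (0.895 against 0.0431). Against HS, 1 of 13 rose and 2 fell in each transplanted group, and Ehhadh, an enzyme of peroxisomal beta-oxidation, fell by 0.93 in Con-FMT (adjusted p = 0.0231) and by 0.83 in A10-FMT (adjusted p = 0.0398). Without HS replicate 1 both of these calls were lost (-0.485 and -0.389). They were kept in 4 (Con-FMT) and 3 (A10-FMT) of the 6 fits without a library. Without Con-FMT replicate 3, 0 rose in Con-FMT. In A10-FMT against Con-FMT 0 rose and 1 fell, Angptl4 (-0.74, adjusted p = 0.0433, and 0.157 without Con-FMT replicate 3). The call of Angptl4 was kept in 2 of the 6 fits without a library. In A10 against Con 0 were called by limma and 6 of 13 had an unadjusted p under 0.05, against 1418 of all 10204 tested genes.

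Adipocyte markers (5 of 5 in the table) also rose from Con to HS and HS+A10, with sums of 7.47 to 8.88, 10.16 to 21.05 and 21.06 to 24.72 RPKM. Most of that sum was Fabp4, and Adipoq was at most 0.11 RPKM and Lep at most 0.02 in these groups. The sums did not follow Bdh1 throughout. A10-FMT, where Bdh1 overlapped with HS, had 9.29 to 11.63 RPKM, near A10 (8.08 to 10.43), and Con-FMT had 13.56 to 38.26. HS replicate 1 had the most Bdh1 and Acat1 of its group but a marker sum of 13.86 RPKM, against 21.05 in HS replicate 2. Cfd, which encodes adipsin, was at most 0.24 RPKM in Con and 0.16 in HS but 2.61, 2.46 and 1.33 in HS+A10. Stellate cell markers (5 of 5) summed to 69.22 to 79.76 RPKM in Con 107.5 to 168.9 in HS and 107 to 116.4 in HS+A10, and none was at 0. Endothelial cell markers (5 of 5, none at 0) summed to 35.55 to 40.24 RPKM in Con, 35.64 to 44.59 in A10, 38.93 to 44.22 in HS and 51.42 to 61.28 in HS+A10, above the others without overlap. Hepatocyte markers summed to 37230 to 42450 RPKM in HS and 45330 to 48580 in HS+A10. The part of these shifts in the result was not tested, and in bulk tissue fewer cells of a type and less RNA per cell cannot be told apart.

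Slc16a1 was lowest in the transplanted groups, at about the same level in A10-FMT and Con-FMT. Its level was 14.48, 13.28 and 13.48 RPKM in Con (13.8 ± 0.643, SD, n = 3) and 14.08, 13.46 and 14.63 in A10 (14.1 ± 0.585), the groups with the least spread. It was 24.93, 20.47 and 15.87 RPKM in HS (20.4 ± 4.53) and 12.14, 22.42 and 16.88 in HS+A10 (17.2 ± 5.15). It was 12.41, 9.12 and 8.33 RPKM in Con-FMT (9.95 ± 2.16) and 11.55, 10.93 and 7.37 in A10-FMT (9.95 ± 2.26), and all 6 of these libraries lay below the 9 of Con, A10 and HS. Of all tested genes, 35% had no overlap between Con-FMT and HS and 37.4% none between A10-FMT and HS, in either direction. The share with all 6 transplanted libraries below these 9 was not counted. The lowest HS+A10 library, at 12.14 RPKM, lay below the highest Con-FMT library.

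Slc16a1 fell in A10-FMT against HS by 0.97 on the log2 scale (SE 0.204, adjusted p = 0.00507) and in Con-FMT against HS by 0.96 (SE 0.204, adjusted p = 0.00393). Relative to the median of all genes the changes were -0.81 and -0.85. These calls were kept in all 15 alternatives each, the removal of each library included, with -0.86 for Con-FMT without its replicate 3 (adjusted p = 0.0161). In A10-FMT against HS 2 of the 6 genes were called, both lower, where 23.1% of tested genes were called and 21% were called lower. In Con-FMT against HS 2 of the 6 were called, both lower, where 23.6% were called and 19% were called lower, so that falling genes were common in both comparisons. The difference between A10-FMT and Con-FMT was -0.005 for Slc16a1 (95% interval -0.44 to 0.43, adjusted p = 0.992).

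HS against Con gave 0.52 for Slc16a1 (95% interval 0.08 to 0.95, adjusted p = 0.087) with no overlap of libraries, which 36.8% of tested genes shared, and 0.50 without Con replicate 3 (adjusted p = 0.174). HS+A10 against HS gave -0.26 (-0.69 to 0.18, adjusted p = 0.474) and A10 against Con 0.03 (-0.40 to 0.47, adjusted p = 0.966), a sign that turned to -0.05 with each library scaled to the same median. The 3 genes most like Slc16a1 over the 18 libraries were Rab11fip4 (r = 0.914), Trappc8 (0.914) and Efr3a (0.904). Among the other 5 genes, Pdk4 was most like it, with r = 0.582 and 0.703 within groups.

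Red blood cells and macrophages are also known to carry MCT1, and the sums of their markers were lower than in HS in most of the transplanted libraries. Red blood cell markers (5 of 5 in the table) summed to 2886 to 10040 RPKM in HS, 875.6 to 3619 in Con-FMT and 1135 to 2049 in A10-FMT, most of it Hba-a1, and Hba-a2 was at 0 in A10-FMT replicate 3 and Con-FMT replicate 2. Within HS the order differed, since the library with the most Slc16a1 (24.93 RPKM) had the lowest marker sum (2886) and Con-FMT replicate 1, with more (3619), had 12.41 RPKM of Slc16a1. Kupffer cell and macrophage markers (6 of 6) summed to 61.33 to 104.1 RPKM in HS, 47.02 to 91.54 in Con-FMT and 41.74 to 50.99 in A10-FMT, and none was at 0. Stellate cell markers were lower in both transplanted groups without overlap, at 107.5 to 168.9 RPKM in HS, 82.36 to 98.56 in Con-FMT and 83.09 to 105.1 in A10-FMT. Endothelial cell markers summed to 38.93 to 44.22 RPKM in HS, 28.56 to 38.23 in A10-FMT and, overlapping with HS, 31.6 to 45.42 in Con-FMT. In Con and A10, where Slc16a1 lay above all transplanted libraries, red blood cell markers summed to 1256 to 1972 and 2112 to 2742 RPKM. Kupffer cell and macrophage markers summed there to 57.79 to 86.13 and 69.07 to 98.94 RPKM. Stellate cell markers summed to 69.22 to 79.76 RPKM in Con and 78.79 to 86.37 in A10. For endothelial cell markers the sums were 35.55 to 40.24 and 35.64 to 44.59 RPKM. The part of these markers in the fall was not tested.

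Of the 11 genes listed for monocarboxylate and pyruvate transport, 8 were tested. In A10-FMT against HS 0 rose and 3 fell (median 0.0324 against -0.16 over all genes), namely Slc16a1, Slc16a6 (-0.68, adjusted p = 0.0155), a carrier of the same family that exports ketone bodies, and Bsg (-0.31, adjusted p = 0.0201), the chaperone that takes MCT1 to the membrane. With 1 library left out in turn, the call was kept in 4 of 6 fits for Slc16a6 and in 2 of 6 for Bsg, whose libraries overlapped. In Con-FMT against HS 0 rose and 2 fell (-0.17 against -0.116), Slc16a1 and Slc16a6 (-0.74, adjusted p = 0.00884), the same counts as without Con-FMT replicate 3. In HS against Con 1 rose (0.251 against 0.141), Mpc2, a subunit of the mitochondrial pyruvate carrier (0.32, adjusted p = 0.0233, and 0.0731 without Con replicate 3). The call of Mpc2 was kept in 2 of the 6 fits without a library. Slc16a13, a carrier of the same family, rose in HS+A10 over HS by 0.71 (adjusted p = 0.0224) as the only gene of the list called there. That call was kept in 3 of the 6 fits without a library. Slc16a13 and Slc16a7 (0.78, adjusted p = 0.00915) made up the 2 that rose in HS+A10 over A10. In A10-FMT against Con-FMT and in A10 against Con 0 of the 8 were called by limma, and 1 and 3 of them had an unadjusted p under 0.05. Over all 10204 tested genes, 3318 and 1418 had one.

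**Figure D3:**
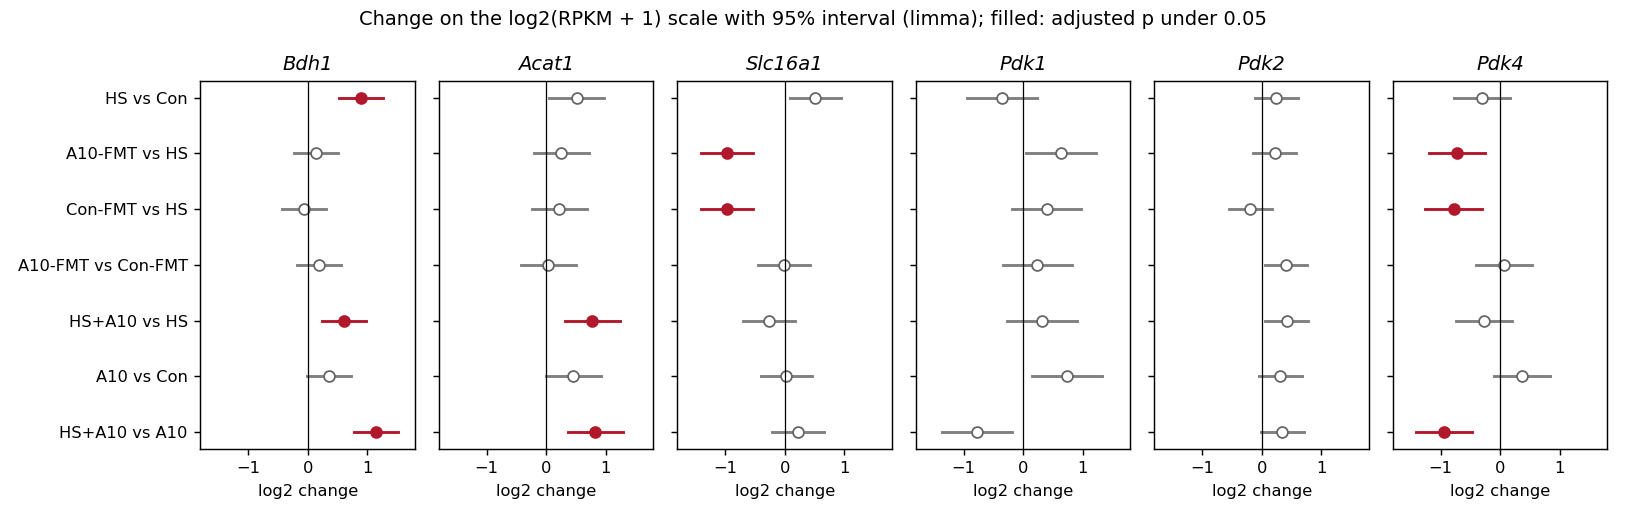
Change of each of the 6 genes (x axis, log2(RPKM + 1) scale) in the 7 comparisons of pairs of groups, with the 95% interval of limma. Filled points passed an adjusted p under 0.05. The 10 filled points are those of Bdh1 and Acat1 to the right of 0, and of Slc16a1 and Pdk4 to its left, while Pdk1 and Pdk2 have none.

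Pdk2 held most of the kinase mRNA of these livers and Pdk4 a small part that was lower still after transplantation. Kinase protein and activity were not measured. Since RPKM is per length, the kinases can be set side by side. Pdk1 to Pdk4 together summed to 46.8 ± 5.50 RPKM (SD, n = 3) in Con, 62.7 ± 9.43 in A10, 51.3 ± 2.61 in HS, 68.2 ± 14.2 in HS+A10, 47.7 ± 13.7 in Con-FMT and 60.8 ± 0.746 in A10-FMT. Pdk2 held a mean share of 73.6% (A10) to 87% (HS+A10), Pdk1 of 10.5% (HS+A10) to 20.6% (A10), and Pdk3, at 0.03 to 0.47 RPKM and not tested, at most 0.68%. The share of Pdk4 was 5.07% ± 0.529 in Con, 5.53% ± 1.52 in A10, 3.43% ± 1.07 in HS, 2.1% ± 1.23 in HS+A10, 1.21% ± 0.446 in Con-FMT and 1.1% ± 0.551 in A10-FMT.

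Pdk4 was at 1.87, 2.92 and 2.38 RPKM in Con (2.39 ± 0.525, SD, n = 3) and 2.77, 3.62 and 3.72 in A10 (3.37 ± 0.522). It was at 2.25, 1.77 and 1.22 RPKM in HS (1.75 ± 0.515) and 0.62, 1.97 and 1.39 in HS+A10 (1.33 ± 0.677). It was at 0.71, 0.26 and 0.83 RPKM in Con-FMT (0.60 ± 0.301) and 0.65, 1.02 and 0.34 in A10-FMT (0.67 ± 0.340), where all 6 libraries lay below the 9 of Con, A10 and HS. Neighbours in the order of means overlapped throughout, and A10 (2.77 or more) lay above HS (2.25 or less) while Con overlapped with HS. Of all tested genes, 34.7% had no overlap between A10 and HS, 35% none between Con-FMT and HS and 37.4% none between A10-FMT and HS, in either direction. The share with all 6 transplanted libraries below the 9 of Con, A10 and HS was not counted.

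Pdk4 fell in A10-FMT against HS by 0.72 on the log2 scale (SE 0.222, adjusted p = 0.030), in Con-FMT against HS by 0.78 (SE 0.222, adjusted p = 0.0192) and in HS+A10 against A10 by 0.95 (SE 0.222, adjusted p = 0.00757). Without a pseudocount, the ratio of mean RPKM was 0.384, 0.344 and 0.394. At such low levels the first pair of calls rested on the settings. That for A10-FMT was lost in 8 of 14 alternatives, among them no filter on low genes (adjusted p = 0.0529), quantile normalization (0.0758), median scaling (0.0778) and the removal of HS replicate 1 (0.092), HS replicate 2 (0.0762), A10-FMT replicate 1 (0.0528) or A10-FMT replicate 3 (0.13), with adjusted p from 0.0292 to 0.13 over them. That for Con-FMT was lost in 5 of 14, among them the removal of HS replicate 1 (0.0776), HS replicate 2 (0.051) or Con-FMT replicate 2 (0.0864), and was kept without Con-FMT replicate 3 (-0.89, adjusted p = 0.02). The fall in HS+A10 against A10 was called in all 13 alternatives (-0.89, adjusted p = 0.0338 without A10 replicate 3), and 7.28% of tested genes were called lower there.

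HS against Con gave -0.31 for Pdk4 (95% interval -0.78 to 0.16, adjusted p = 0.338), A10 against Con 0.37 (-0.10 to 0.84, adjusted p = 0.481) and HS+A10 against HS -0.27 (-0.74 to 0.21, adjusted p = 0.499). Whether diet and STZ acted differently with and without AOS was tested as the difference between HS+A10 against A10 and HS against Con. It was -0.64 for Pdk4 (-1.31 to 0.03, unadjusted p = 0.0604, adjusted p = 0.405, limma), and 0 of the 6 genes were called, against 1 gene or 0.0098% of those tested. An unadjusted p under 0.05 was found for 0 of the 6 and for 1320 of the 10204 tested genes. The gene most like Pdk4 over the 18 libraries was Cpeb4 (r = 0.962), which encodes a regulator of mRNA translation, followed by Hacl1 (0.918), which encodes a peroxisomal lyase, and Tspan14 (0.917).

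The ratio of Pdk4 to Pdk2 within each library does not depend on how libraries are scaled. Its log2 (mean ± SD, n = 3) was -3.96 ± 0.233 in Con, -3.78 ± 0.421 in A10 and -4.69 ± 0.521 in HS. In HS+A10 it was -5.62 ± 1.15, in Con-FMT -6.15 ± 0.671 and in A10-FMT -6.39 ± 0.803. Against HS the difference was -1.70 for A10-FMT and -1.47 for Con-FMT, and it was -0.73 between HS and Con and -1.84 between HS+A10 and A10, each without overlap and at an exact two-sided permutation p = 0.1, the smallest that 3 libraries against 3 allow (0.175 adjusted over the 7 comparisons). HS+A10 against HS (-0.93, exact p = 0.3), A10-FMT against Con-FMT (-0.23, exact p = 0.6) and A10 against Con (0.18, exact p = 0.6) overlapped. HS+A10 replicate 1 had the lowest ratio of its group, -6.93 against -4.76 and -5.16.

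**Figure D4:**
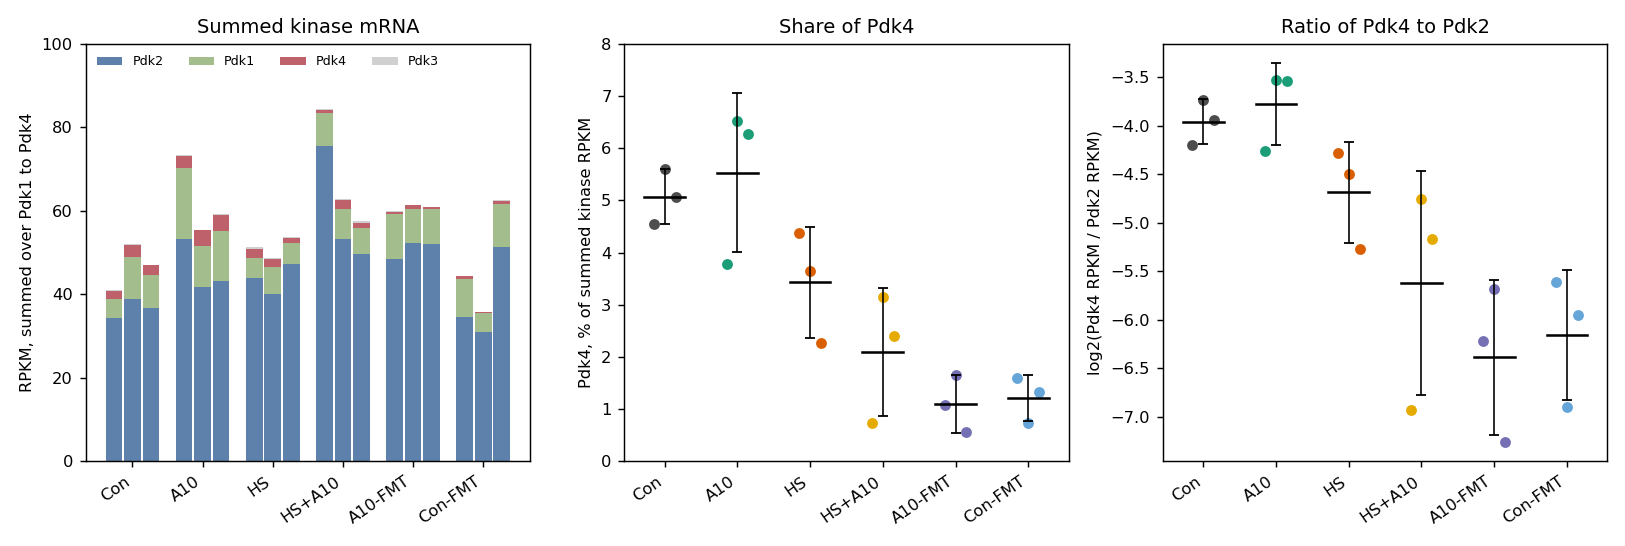
Left, RPKM of Pdk1, Pdk2, Pdk3 and Pdk4 stacked for each library (3 bars per group). Middle, the share of Pdk4 in that sum in percent, and right, log2 of the ratio of Pdk4 to Pdk2 RPKM, with 1 point per library, the mean (long bar) and the SD. Pdk2 fills most of every bar, and the share of Pdk4 goes from 5.53% in A10 to 1.1% in A10-FMT.

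Pdk2, the most widely expressed of the kinases, was at 34.33, 38.81 and 36.69 RPKM in Con (36.6 ± 2.24, SD, n = 3), 53.12, 41.79 and 43.13 in A10 (46.0 ± 6.19) and 43.81, 40.05 and 47.20 in HS (43.7 ± 3.58). It was at 75.54, 53.33 and 49.79 RPKM in HS+A10 (59.6 ± 14.0), 34.57, 31.07 and 51.32 in Con-FMT (39.0 ± 10.8), and 48.47, 52.28 and 52.11 in A10-FMT (51.0 ± 2.15). It was called in none of the 7 comparisons, and its groups overlapped with their neighbours in the order of means. The change was 0.42 for HS+A10 against HS (95% interval 0.06 to 0.78, adjusted p = 0.139), without overlap, as for 27.4% of tested genes, and 0.25 for HS against Con (-0.11 to 0.61, adjusted p = 0.312). Against HS it was 0.22 in A10-FMT (-0.14 to 0.58, adjusted p = 0.347) and -0.19 in Con-FMT (-0.55 to 0.17, adjusted p = 0.439), the latter -0.40 without Con-FMT replicate 3 (adjusted p = 0.0663). There was no overlap either in HS against Con, A10-FMT against HS and A10 against Con (0.32, adjusted p = 0.419). Of all tested genes, 36.8%, 37.4% and 24.8% had none there. A10-FMT against Con-FMT gave 0.41 (0.05 to 0.77, adjusted p = 0.103). Con-FMT replicate 3, the library with pancreas markers, held the high value of 51.32 RPKM, and without it the change was 0.62 (adjusted p = 0.0122). It also passed the threshold under quantile normalization (0.52, adjusted p = 0.0278) and median scaling (0.49, adjusted p = 0.0451). In the fit of all libraries 0 of the 6 genes were called between A10-FMT and Con-FMT, and 18.8% of tested genes were called. Of the 6, 1 had an unadjusted p under 0.05 (Pdk2), as did 3318 of the 10204 tested genes.

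Pdk1, known as a target of hypoxia signalling, was at 4.64, 10.18 and 7.91 RPKM in Con (7.58 ± 2.79, SD, n = 3), 17.19, 9.89 and 12.09 in A10 (13.1 ± 3.75) and 4.89, 6.55 and 5.06 in HS (5.50 ± 0.913). It was at 7.98, 7.21 and 6.03 RPKM in HS+A10 (7.07 ± 0.982), 9.04, 4.36 and 10.37 in Con-FMT (7.92 ± 3.16), and 10.67, 8.14 and 8.42 in A10-FMT (9.08 ± 1.39). All neighbours in the order of group means overlapped. HS+A10 lay below A10 without overlap, as for 43% of tested genes (-0.77, 95% interval -1.36 to -0.19, adjusted p = 0.0574), and passed the threshold under quantile normalization (adjusted p = 0.0255), median scaling (0.0268) and with only these libraries in the fit (0.0294). A10-FMT lay above HS without overlap, as for 37.4% of tested genes (0.63, 0.05 to 1.22, adjusted p = 0.103), which passed with only these libraries in the fit (adjusted p = 0.0413). Con-FMT against HS gave 0.39 (adjusted p = 0.317), and 0.18 without Con-FMT replicate 3. A10 against Con gave 0.74 (0.15 to 1.32, adjusted p = 0.271), in a comparison in which 0 of the 6 and 0.0686% of all tested genes were called. Pdk1 was the only one of the 6 genes with an unadjusted p under 0.05 there (0.0168, limma), as were 1418 of the 10204 tested genes.

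Of the 12 genes listed for the pyruvate dehydrogenase complex and its regulators, 10 were tested, the 3 kinases among them. In HS against Con 2 rose and 0 fell (median 0.14 against 0.141 over all genes), both of them subunits of the complex, Dld (0.43, adjusted p = 0.00838) and Pdha1 (0.40, adjusted p = 0.0322, and 0.0744 without Con replicate 3). With 1 library left out in turn, the call of Dld was kept in 6 of 6 fits and that of Pdha1 in 1 of 6. In A10-FMT against HS 0 rose and 2 fell, Pdk4 and Dld (-0.30, adjusted p = 0.0303, kept in 2 of the 6 fits without a library), with a median of 0.0293 against -0.16. In Con-FMT against HS 1 rose (Pdhb, 0.33, adjusted p = 0.0484) and 2 fell, Pdk4 and Dlat (-0.36, adjusted p = 0.0377). Without Con-FMT replicate 3 the calls of Pdhb (0.17, adjusted p = 0.194) and Dlat (-0.33, adjusted p = 0.0927) were lost, and 0 rose and 4 fell. Of the 6 fits without a library, 1 kept the call of Pdhb and 2 that of Dlat. Pdp2, a phosphatase that undoes the action of the kinases, rose in HS+A10 over HS by 0.56 (adjusted p = 0.0378) and in A10-FMT over Con-FMT by 0.51 (adjusted p = 0.0278, kept in 2 of the 6 fits without a library). Pdpr, a regulatory subunit of such phosphatases, rose in HS+A10 over HS as well (0.42, adjusted p = 0.0279), and these were the 2 of 10 called there, each kept in 1 of the 6 fits without a library. Pdhx fell in A10-FMT against Con-FMT (-0.28, adjusted p = 0.00509), and without Con-FMT replicate 3 the counts there went from 1 higher and 1 lower to 3 and 1. In HS+A10 against A10 4 rose and 1 fell, Pdk4, or 1 and 1 without A10 replicate 3. In A10 against Con 0 were called by limma and 3 of 10 had an unadjusted p under 0.05, against 1418 of all 10204 tested genes.

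**Figure D5:**
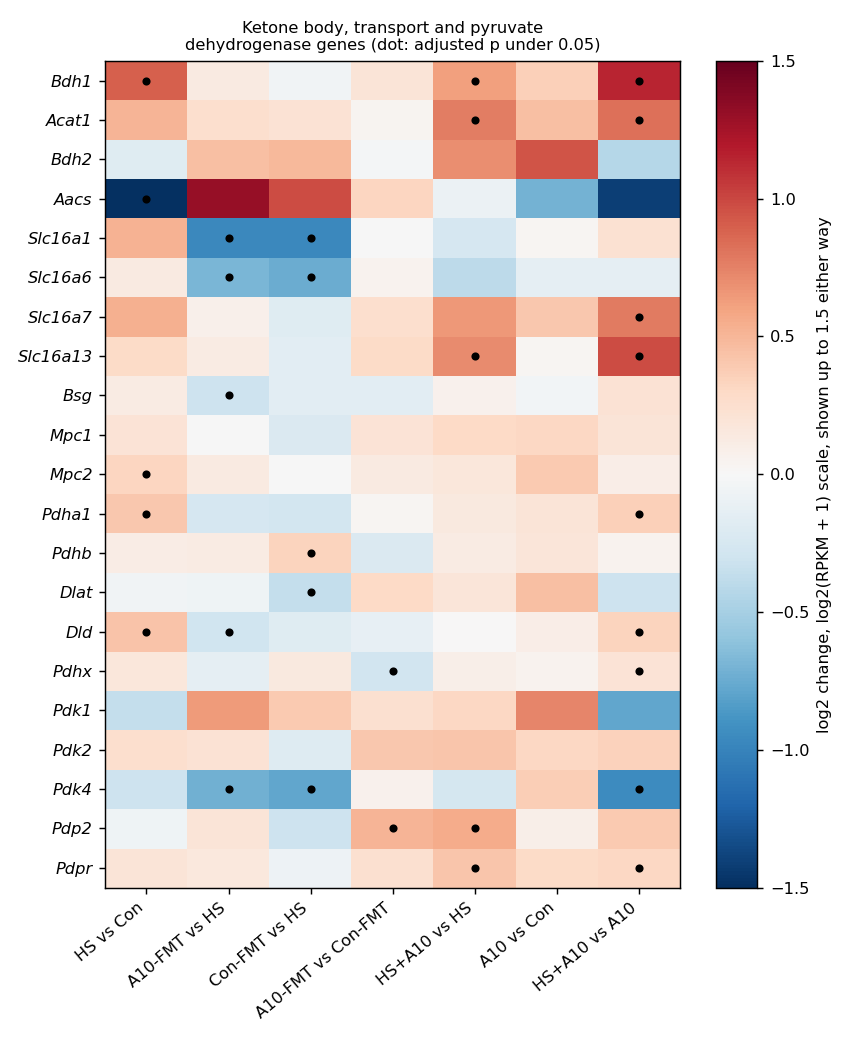
Colour gives the change on the log2(RPKM + 1) scale, shown up to 1.5 either way, of tested genes for ketone bodies, transport and pyruvate dehydrogenase (rows) in the 7 comparisons (columns), and a dot marks an adjusted p under 0.05. Bdh1 and Acat1 are red with dots in HS+A10 against HS and against A10, and the columns of A10-FMT and Con-FMT against HS both hold dots of Slc16a1, Slc16a6 and Pdk4 in blue.

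Clock genes, which cycle over the day in liver, were called in each of the 7 comparisons. Of 13 tested, 7 rose and 4 fell in A10-FMT against HS, 7 and 3 in Con-FMT against HS, 7 and 4 in HS+A10 against HS and 7 and 3 in HS+A10 against A10, 2 and 2 in HS against Con, 1 and 0 in A10-FMT against Con-FMT and 2 and 0 in A10 against Con (0 and 0 without Con replicate 3 or A10 replicate 3). Dbp, an output gene of the clock, was at 0.58 to 0.68 RPKM in Con, 0.36 to 3.41 in A10 and 1.17 to 2.22 in HS, against 47.26 to 97.45 in HS+A10, 51.84 to 55.47 in Con-FMT and 48.8 to 98.8 in A10-FMT. Dbp was also the 1 gene called in the test of whether diet and STZ acted differently with AOS. For Dbp every library of a group lay on the same side, so the part of this shift in the changes of the 6 genes cannot be told apart from the treatments. In HS against Con, where Bdh1 was called, the clock repressors Nr1d1 and Nr1d2 rose. Nr1d1 was at 1.22 to 3.68 RPKM in Con and 17.17 to 26.96 in HS (2.71, adjusted p = 0.000373), and Nr1d2 at 2.05 to 3.03 and 8.18 to 8.88 (1.44, adjusted p = 0.000177). Their part in the rise of Bdh1 was not tested.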

How the data were processed

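Liver RNA of 18 mouse samples was enriched for mRNA with oligo(dT) and sequenced. The authors deposited 1 table of RPKM values with 2 decimals. The paper names SOAPaligner and reference genes, while the submitters' processing notes name Bowtie 0.12.2 and mm10, and which applies was not resolved. In RPKM an abundant gene lowers all others, and read numbers are unknown. Among the symbols 26 had become dates and 3 were repeated, none of them a gene described here. Blood and testis data were not used here.

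Samples were grouped by their labels. In R 4.3.3, limma 3.58.1 was run on log2(RPKM + 1) of all 18 libraries, with a mean for each group, moderated variances that follow expression, two-sided tests and Benjamini-Hochberg adjustment within a comparison. DEGseq, the test of the study, does not use the replicate spread and was left out. The procedure was tested on simulated data. Ratios of Pdk4 to Pdk2 were compared by exact permutation.

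Named are all 6 genes, at most the 3 genes with the smallest adjusted p of a pathway list in a comparison, and for each of the 6 the 3 genes with the highest Pearson correlation. A few items are not reported here. Oxct1, Aacs, Pdk3 and single marker genes were named after their values were seen. The 6 genes and the lists were chosen with earlier results of these data known. Positions are from GENCODE and promoters from RefSeq, both on GRCm38. Python 3.11.15 with matplotlib 3.10.9 drew the figures.

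Alternatives were quantile normalization, median scaling, the pseudocount at 0.1, every gene kept, only genes averaging 5 RPKM or more, the replicate number as a block, fits of only the libraries compared or of the 12 libraries of Con, HS, A10-FMT and Con-FMT, a variance without trend, the cut-offs of the study (adjusted p of at most 0.001 and a log2 change of at least 1), a pseudocount in the ratio, and each library left out in turn. Leaving out Con replicate 3, A10 replicate 3 or Con-FMT replicate 3 as libraries in doubt, and any library for genes of the lists, and the split of 12 libraries against 6, were chosen after seeing the data.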

Additional observations from a re-analysis of the deposited data

How the results depend on the processing

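The 10 calls described above kept their direction in all 142 alternative fits and their call in 114. The 38 changes that were not called gave 576 such fits, of which 9 passed the threshold and 17 turned the sign. With only the libraries compared, the number of the 6 genes called went from 1 to 0 for HS against Con, from 2 to 1 for Con-FMT against HS and from 2 to 0 for HS+A10 against HS. In HS+A10 against A10 it went from 3 to 4, with Pdk1 (adjusted p = 0.0294), as it did with quantile normalization and median scaling. In A10-FMT against HS it stayed at 2, with Pdk1 (0.0413) in place of Pdk4 (0.0602). At the threshold of the study it was 0 in these and in A10-FMT against HS, and 1 instead of 3 in HS+A10 against A10. For A10-FMT against HS it was 1 instead of 2 with no filter, with a mean of at least 5 RPKM (where Pdk4 is not tested), with quantile normalization and with median scaling. For Con-FMT against HS it was 1 with the mean of 5 RPKM and with quantile normalization, for A10-FMT against Con-FMT 1 instead of 0 with either scaling, and for HS+A10 against HS 0 with no filter. With each library left out it ranged from 1 to 2 in HS against Con and in A10-FMT and Con-FMT against HS, from 0 to 1 in A10-FMT against Con-FMT and from 0 to 2 in HS+A10 against HS. The log2 ratio of Pdk4 to Pdk2 moved from -1.70 to -0.94 (A10-FMT against HS) and from -1.47 to -0.59 (Con-FMT against HS) with a pseudocount of 1, by the construction of that setting. Fewer samples or genes enter several of these fits, and otherwise the cause was not tested.

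Signs turned for small values. With median scaling Bdh1 was 0.0595 in Con-FMT against HS, Slc16a1 0.0654 in A10-FMT against Con-FMT and -0.0462 in A10 against Con. With quantile normalization Slc16a1 was 0.0689 and -0.0611 in these comparisons and Pdk4 -0.0178 in A10-FMT against Con-FMT. With a library left out, Bdh1 ranged from -0.0178 to 0.357 in A10-FMT against HS and from -0.207 to 0.168 in Con-FMT against HS, and Pdk2 from -0.0793 to 0.217 in the difference of the effects of diet and STZ with and without AOS. In A10-FMT against Con-FMT, Acat1 ranged from -0.059 to 0.111, Slc16a1 from -0.115 to 0.178, Pdk1 from -0.0932 to 0.449 and Pdk4 from -0.103 to 0.209.

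Of 109 calls among the other genes of the pathway lists, 65 were kept with each library of the comparison left out in turn.

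Deviations from the group mean correlated between same-numbered libraries at -0.0932 to 0.262, highest for replicates 3 (0.262) and 1 (0.227) of HS+A10 and HS. Libraries of unlike number were not compared in this way, so this does not decide whether numbers pair samples. They were not taken to do so. With the replicate number as a block the 6 genes gave the same counts of calls, 1 in HS against Con, 2 in A10-FMT against HS, Con-FMT against HS and HS+A10 against HS, 3 in HS+A10 against A10 and 0 in the others. With 3 libraries per group and an unknown number of reads, values near 1 RPKM, such as those of Pdk4, are the least certain.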
